A study of Mus musculus with 16 samples.

Results

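The 77 genes described here carry the names of proteins of the mitochondrial ribosome. They were chosen by name and by measured counts: the symbol is Mrpl or Mrps followed by a number and at most 1 further letter, and the count is nonzero in each of 16 libraries, which 77 of 24421 genes met. Of these, 48 are Mrpl genes (named for the large subunit) and 29 are Mrps genes (named for the small subunit). All 77 symbols of this form met the condition on counts, and 0 were left outside it. The lowest counts in any library were 513 for Mrps36, 518 for Mrpl47 and 626 for Mrpl1, and the highest was 7501. All 77 also passed the filter on low counts that left 13554 genes for testing.

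RNA sequencing was done on naive T cells sorted from lymph nodes of C57BL/6 mice, gated as CD25-negative with high CD62L and low CD44. Within the CD8+ and the CD4+ gate, cells were taken from both ends of the range of surface CD5: the third that stained highest (CD5hi) and the third that stained lowest (CD5lo). CD5 is an inhibitory surface receptor of T cells, and naive cells that recognise self more strongly carry more of it. The groups were CD8 CD5hi, CD8 CD5lo, CD4 CD5hi and CD4 CD5lo, with 4 biological replicates each; the labels name no genetic change, treatment, age or sex. Whether a replicate was 1 mouse or a pool is not given, so p-values measure the spread between these samples. In sorted bulk samples, fewer cells of a kind and less RNA per cell cannot be told apart.

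Mitochondria keep their own ribosome, which translates the few messages of the mitochondrial genome into membrane subunits of the respiratory chain and the ATP synthase. Its ribosomal RNAs come from the mitochondrial genome, whereas its proteins are encoded in the nucleus, made in the cytosol and imported. Part of these proteins have bacterial counterparts and part were added in the mitochondrial lineage. Naive T cells are quiescent, and activated T cells need mitochondrial translation to build respiratory capacity.

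Libraries held 71447252 to 93418385 counts (median 78528233), of which the 77 genes took 0.221 to 0.295%. The sorted identities were visible in the RNA: Cd5 averaged 498 ± 37.8 CPM (TMM-scaled CPM) in CD8 CD5hi and 200 ± 12.3 CPM in CD8 CD5lo cells, and 1386 ± 34.4 CPM in CD4 CD5hi and 255 ± 19.5 CPM in CD4 CD5lo cells (SD, n = 4 each). Cd8a averaged 1604 and 1979 CPM in CD8 CD5hi and CD8 CD5lo, against 1.39 and 5.43 CPM in CD4 CD5hi and CD4 CD5lo. 3 libraries carried more B cell marker RNA than the others: the summed markers stood at 984 CPM in CD8 CD5hi replicate 4, 606 CPM in CD8 CD5lo replicate 3 and 385 CPM in CD4 CD5lo replicate 3, against 10.9 to 71.4 CPM elsewhere. Summed myeloid markers ran from 45.9 to 86.8 CPM, and natural killer markers from 425 to 648 CPM in CD8 and 16.2 to 48.5 CPM in CD4 libraries. In CD8 CD5hi cells the natural killer sum was mostly Nkg7 (mean 371 CPM), Klrd1 (101 CPM) and Prf1 (61.7 CPM). Klrb1c (4.12 CPM), Klrk1 (4.65 CPM) and Gzma (2.02 CPM) were low there. Whether this RNA came from natural killer cells or from the CD8 T cells was not tested.

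The genes are scattered over 17 chromosomes, with 10 on chromosome 11, 8 on chromosome 17 and 7 on chromosome 6 (GENCODE vM21, GRCm38). A start that faces another protein-coding gene was common. Of the 77 genes, 33 (42.9%) begin head to head within 1000 bp of a protein-coding gene on the opposite strand, against 1997 of 12101 tested protein-coding genes (16.5%). Several partners also serve mitochondria: Mrpl36 faces Ndufs6 and Mrpl47 faces Ndufb5, both subunits of respiratory complex I. Mrps12 faces Sars2, the mitochondrial seryl-tRNA synthetase, Mrpl43 faces Twnk, the helicase of mitochondrial DNA, and Mrps27 faces Ptcd2. Mrpl46 and Mrps11, proteins of different subunits, share 1 head-to-head locus on chromosome 7. These are 32 loci, and in 14 of them the annotated 5′ ends overlap. No source used here states the strand setting of the counting, so reads of overlapping partners cannot be told apart.

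RefSeq start windows of GRCm38.p6 (250 bases before to 50 after the start) were found for 68 of the 77 genes, 74 windows in all, and were searched on both strands for 5 short motifs. CCGGAAG, the core bound by ETS factors such as GABPA, lay in 33.8% of the windows, against 16.9% of the windows of all tested genes. GCATGCGC, part of the NRF1 motif, lay in 10.8% against 5.17%, and AAGATGGCG, part of the YY1 motif, in 10.8% against 2.85%. The E-box CACGTG (9.46% against 9.72%) and the CCAAT box (40.5% against 37.6%) were about as frequent as elsewhere. A match describes these letters and is not a bound site. The windows below belong to genes whose RNA passed a test in a comparison described later; motif matches are in capitals, read on either strand. Mrpl34 lies at chr8:71464676-71464975 (+ strand), Mrpl36 at chr13:73330759-73331058 (+), Mrpl27 at chr11:94653541-94653840 (+), Mrps26 at chr2:130563507-130563806 (+) and Mrpl52 at chr14:54426659-54426958 (+). The window of Mrpl34 holds the ETS core once and that of Mrpl52 holds it in 2 places on the opposite strand. The window of Mrpl36 holds no ETS core but a CCAAT box, an E-box and the YY1 letters. Its RefSeq start lies inside the gene as GENCODE draws it, more than 1000 bp from the GENCODE start that faces Ndufs6. The head-to-head arrangement of Mrpl36 thus rests on the GENCODE start.
Mrpl34: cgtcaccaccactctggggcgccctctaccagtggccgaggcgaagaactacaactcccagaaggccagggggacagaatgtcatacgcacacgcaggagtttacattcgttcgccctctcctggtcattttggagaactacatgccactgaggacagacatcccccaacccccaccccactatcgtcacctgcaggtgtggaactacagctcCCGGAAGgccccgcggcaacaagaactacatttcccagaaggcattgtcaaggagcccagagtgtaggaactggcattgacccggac
Mrpl36: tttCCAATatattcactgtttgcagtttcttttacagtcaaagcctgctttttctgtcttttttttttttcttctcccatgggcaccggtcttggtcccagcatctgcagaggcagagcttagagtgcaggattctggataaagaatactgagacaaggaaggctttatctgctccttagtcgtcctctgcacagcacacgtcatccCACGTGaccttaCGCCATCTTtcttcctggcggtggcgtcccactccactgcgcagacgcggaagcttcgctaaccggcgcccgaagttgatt
Mrpl27: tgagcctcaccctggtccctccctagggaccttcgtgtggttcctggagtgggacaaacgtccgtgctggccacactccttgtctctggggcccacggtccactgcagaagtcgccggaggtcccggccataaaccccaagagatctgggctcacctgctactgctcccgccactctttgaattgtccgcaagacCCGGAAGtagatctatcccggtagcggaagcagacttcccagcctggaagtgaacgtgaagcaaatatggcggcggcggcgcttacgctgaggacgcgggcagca
Mrps26: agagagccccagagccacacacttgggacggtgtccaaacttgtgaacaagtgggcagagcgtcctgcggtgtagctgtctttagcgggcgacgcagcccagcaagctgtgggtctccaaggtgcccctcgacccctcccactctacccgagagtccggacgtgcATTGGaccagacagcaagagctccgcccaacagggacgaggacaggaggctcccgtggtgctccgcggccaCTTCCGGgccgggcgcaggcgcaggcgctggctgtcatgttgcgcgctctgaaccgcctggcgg
Mrpl52: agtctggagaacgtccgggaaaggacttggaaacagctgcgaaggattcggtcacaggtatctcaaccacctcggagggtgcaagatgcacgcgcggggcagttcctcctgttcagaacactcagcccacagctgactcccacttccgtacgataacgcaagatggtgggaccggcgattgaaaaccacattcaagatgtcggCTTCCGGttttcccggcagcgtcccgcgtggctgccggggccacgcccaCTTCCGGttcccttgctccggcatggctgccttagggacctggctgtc

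The shared locus of Mrps11 and Mrpl46 is shown because 1 stretch of DNA serves genes of both subunits. The window of Mrps11 is chr7:78782881-78783180 (+ strand) and that of Mrpl46 is chr7:78783040-78783339 (− strand); they overlap, and the YY1 letters stand in the window of Mrps11. Neither gene was called below in the fit with 1 term per group. Mrpl46 was called lower in CD8 CD5lo than in CD4 CD5lo cells (log2 change -0.18, edgeR adjusted p 0.0267) with the replicate number as a block, and also without CD4 CD5lo replicate 4 (-0.23, edgeR adjusted p 0.0490). With the block, Mrps11 was called higher in CD8 CD5hi than in CD8 CD5lo cells, a comparison in which numbers were not taken as pairing. Mrps11 averaged 23.8 CPM in CD8 CD5hi and 20.01 CPM in CD8 CD5lo cells, and 23.7 CPM in CD4 CD5hi and 22.5 CPM in CD4 CD5lo cells. Mrpl46 averaged 21.7, 20.5, 20.9 and 23.2 CPM in the same order of groups.
Mrps11: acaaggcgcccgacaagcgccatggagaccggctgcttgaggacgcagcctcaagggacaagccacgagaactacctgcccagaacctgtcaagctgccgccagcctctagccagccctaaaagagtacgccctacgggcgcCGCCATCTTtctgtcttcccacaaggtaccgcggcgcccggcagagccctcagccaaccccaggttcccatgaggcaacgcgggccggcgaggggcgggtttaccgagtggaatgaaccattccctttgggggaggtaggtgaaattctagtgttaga
Mrpl46: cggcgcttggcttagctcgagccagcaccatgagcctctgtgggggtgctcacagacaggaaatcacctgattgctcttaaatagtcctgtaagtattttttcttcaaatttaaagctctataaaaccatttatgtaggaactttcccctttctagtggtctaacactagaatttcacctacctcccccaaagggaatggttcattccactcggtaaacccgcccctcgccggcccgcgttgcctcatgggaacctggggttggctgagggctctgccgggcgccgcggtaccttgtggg

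Levels per length, in RPKM over the exons of RefSeq-matched transcripts, spread widely among genes whose proteins sit in 1 particle in single copies for the most part. The 48 Mrpl genes had a median of 22.6 RPKM over all libraries and the 29 Mrps genes 15.7 RPKM. Among Mrpl genes the highest were Mrpl52 (90.7 RPKM), Mrpl33 (88.2 RPKM) and Mrpl30 (72.5 RPKM). The lowest were Mrpl17 (3.86 RPKM), Mrpl1 (3.18 RPKM) and Mrpl47 (2.97 RPKM). Among Mrps genes the highest were Mrps34 (47.9 RPKM), Mrps21 (47.6 RPKM) and Mrps23 (40.2 RPKM). The lowest were Mrps27 (9.09 RPKM), Mrps35 (8.16 RPKM) and Mrps25 (2.08 RPKM). The order was largely the same in the sorted populations: 9 of the 10 highest and 8 of the 10 lowest genes were shared by all 4 groups. Neighbours in this order often lay within each other's spread, such as Mrpl52 and Mrpl33 in CD8 CD5hi cells (88.9 ± 11.0 and 97.9 ± 30.6 RPKM, SD, n = 4). The choice of length mattered, since 5 of the 10 highest genes stayed among the 10 highest when all annotated exons were counted as length, and Mrpl33 then stood at 5.76 RPKM. Mrps25 shares 58.2% of its exonic bases with Nr2c2, so its low level is uncertain as well.

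**Figure D1:**
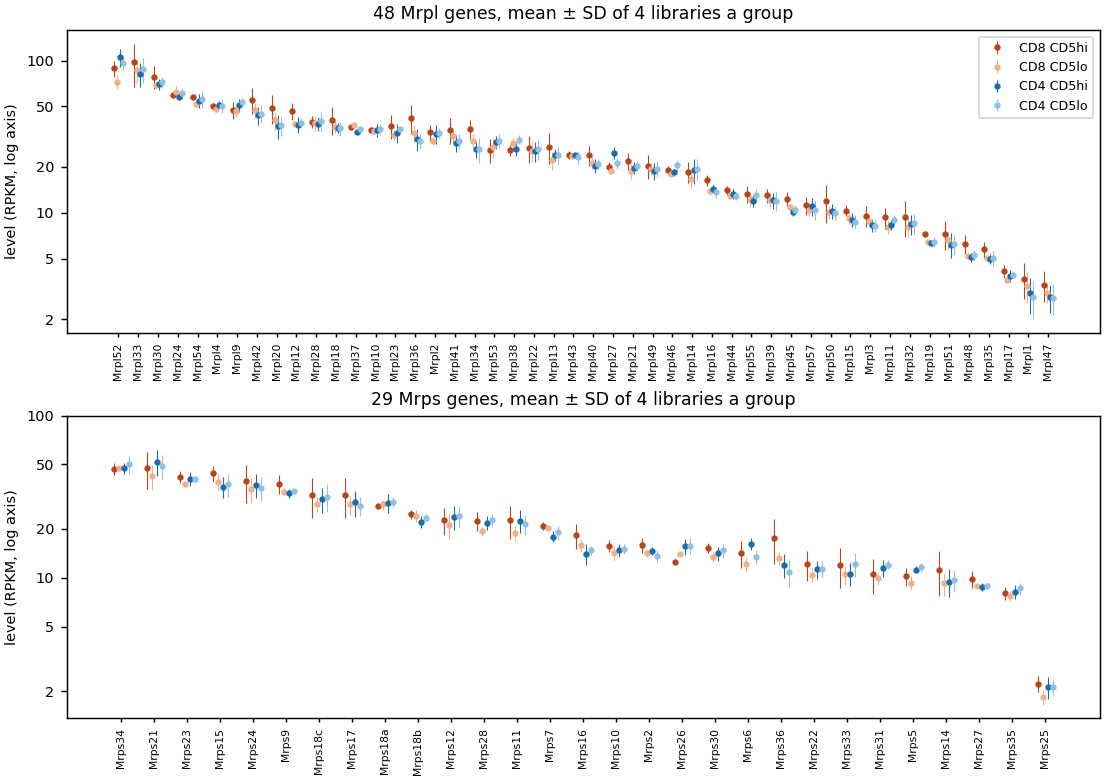
Mean level of each gene (RPKM, log axis, bars are SD of 4 libraries) in CD8 CD5hi, CD8 CD5lo, CD4 CD5hi and CD4 CD5lo cells, with 48 Mrpl genes above and 29 Mrps genes below, each by falling mean. Levels fall 43.7-fold between Mrpl52 and Mrps25, while the 4 groups stay close together within each gene.

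Mrpl12, the stalk protein of the large subunit that recruits translation factors, averaged 40.5 RPKM over all libraries. 5 genes with a place of their own in the particle, or none, were looked at separately. Mrps18a, Mrps18b and Mrps18c are homologues of 1 bacterial S18 protein; the first sits in the large subunit and the other two in the small one. They averaged 28.5, 23.6 and 30.7 RPKM, and none of them was called in the 5 comparisons below in the fit with 1 term per group. Mrps30, a large subunit protein despite its name, averaged 14.4 RPKM and was not called in that fit either. With the replicate number as a block, Mrps30 was called higher in CD8 CD5hi than in CD8 CD5lo cells. Mrps36, a protein of the 2-oxoglutarate dehydrogenase complex rather than of the ribosome, averaged 13.4 RPKM.

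Across the 16 libraries the median spread of these genes was below that of all tested genes. The SD of log2 CPM had a median of 0.168 over the 77 genes, against 0.194 over the 5646 tested genes in the same range of mean level (9.40 to 80.0 CPM) and 0.255 over all tested genes. Mrpl37 (0.0782), Mrpl43 (0.0854) and Mrpl4 (0.0943) were the steadiest, and Mrpl1 (0.369), Mrps36 (0.356) and Mrpl47 (0.284) the least steady by this SD. These last 3 also had the lowest counts in any library.

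The summed level of the 77 genes was 2983, 2484, 2371 and 2401 CPM in CD8 CD5hi replicates 1 to 4 and 2553, 2235, 2252 and 2329 CPM in CD8 CD5lo replicates 1 to 4. It was 2646, 2200, 2279 and 2422 CPM in CD4 CD5hi and 2673, 2414, 2328 and 2273 CPM in CD4 CD5lo replicates 1 to 4. The replicate 1 library was the highest of its group in all 4 groups, and the groups overlapped. For single genes, replicate 1 was the highest of its group for 65 of 77 genes in CD8 CD5hi and 58 in CD8 CD5lo, and for 63 in CD4 CD5hi and 57 in CD4 CD5lo. Over all tested genes, the same library was the highest for 37.1, 33.5, 32.4 and 26.8% in that order of groups. CD8 CD5hi replicate 1 stood furthest out, with a median deviation of 0.34 (log2) from each gene's own mean, where the next library reached 0.15. This was not particular to these genes. In the same library the median deviation was 0.47 for nuclear respiratory chain genes and 0.31 for cytosolic ribosomal protein genes, against 0.009 over all tested genes. Large and small subunit genes moved together. Mrps genes summed to 0.522 to 0.567 of the Mrpl genes in every library, with means of 0.532 in CD8 CD5hi and 0.534 in CD8 CD5lo, and 0.555 in CD4 CD5hi and 0.553 in CD4 CD5lo.

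**Figure D2:**
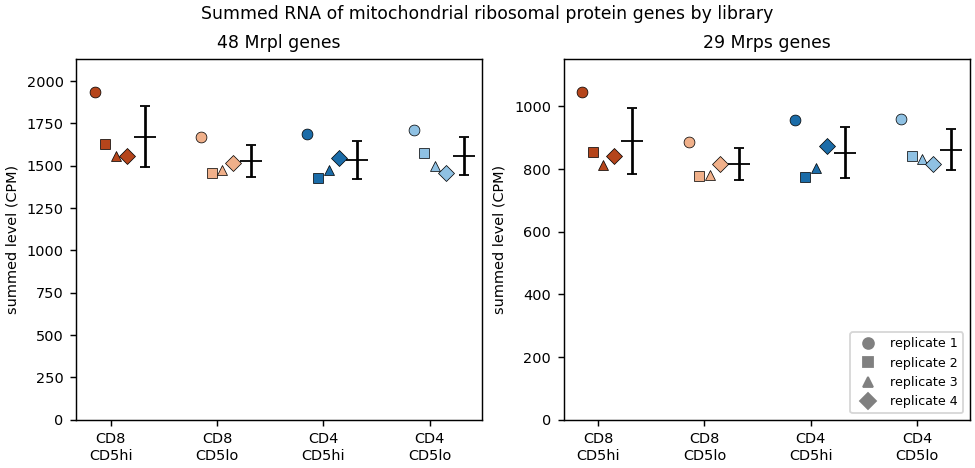
Summed level (CPM) of the 48 Mrpl genes (left) and 29 Mrps genes (right) in each library, by group, with symbols for replicate number and the mean ± SD of 4 libraries beside the points. Replicate 1 is the highest point of every group, and CD8 CD5hi replicate 1 reaches 1936 CPM for Mrpl and 1046 CPM for Mrps genes.

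**Figure D3:**
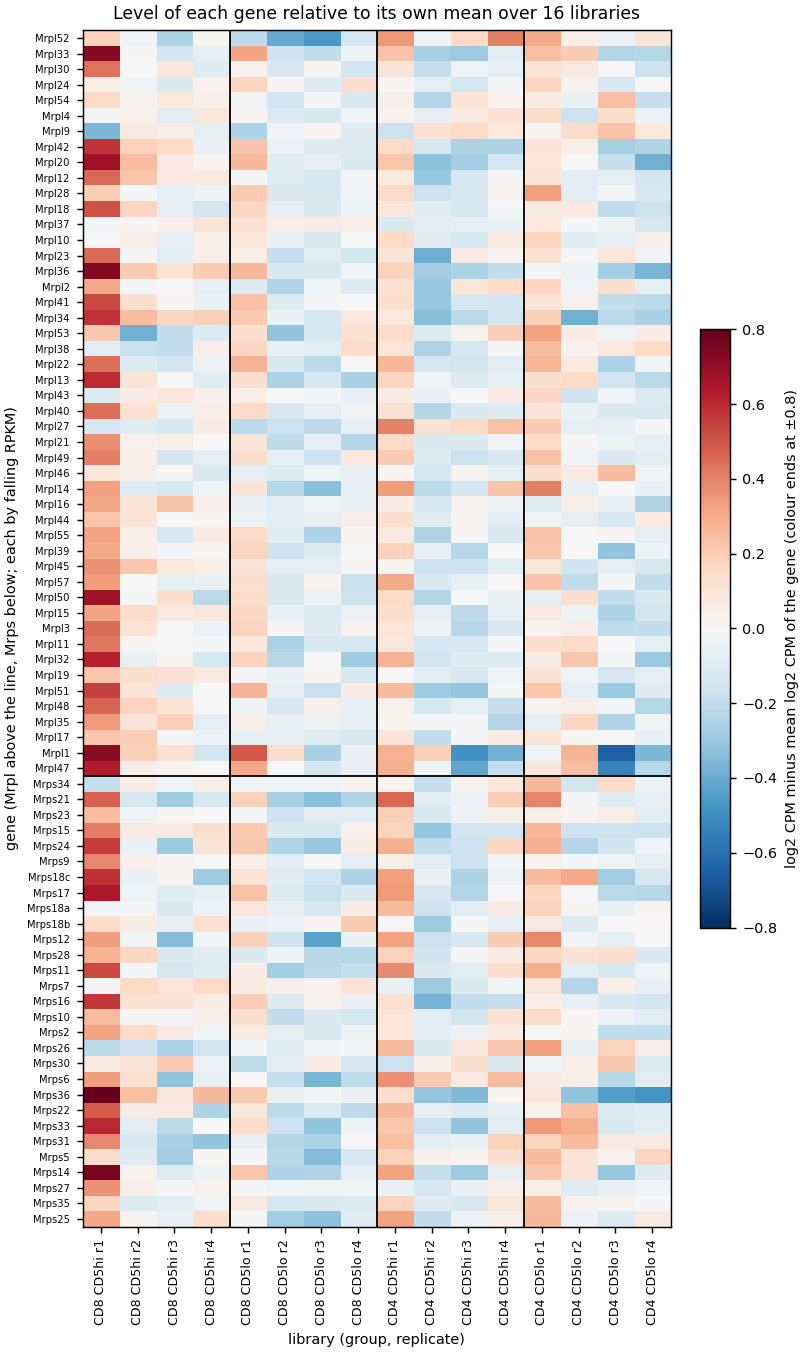
Log2 CPM of each of the 77 genes (rows, Mrpl above the line and Mrps below) minus its own mean over 16 libraries (columns, 4 per group). In the replicate 1 columns 67 (CD8 CD5hi), 54 (CD8 CD5lo), 71 (CD4 CD5hi) and 69 (CD4 CD5lo) of the 77 genes lie above their own mean.

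In CD8 cells, most of the genes were slightly higher in CD5hi than in CD5lo cells, but none was called in the fit with 1 term per group. With edgeR's quasi-likelihood test and Benjamini-Hochberg adjustment at 0.05, 0 of the 77 genes were called higher and 0 lower, against 5.95% and 3.51% of all tested genes (9.46% either way). At an unadjusted p under 0.05 there were 11 higher and 0 lower, where 12.5% and 10.2% of all genes were. The log2 change was above 0 for 70 of the 77 genes and for 49.6% of all tested genes. Its median was 0.16 (1.12-fold) over the 77 genes and -0.003 over all genes, with a range of -0.15 to 0.41. The subunits did alike: 44 of 48 Mrpl genes (median 0.16) and 26 of 29 Mrps genes (median 0.17) lay above 0. By origin, with Mrps18a and Mrps30 counted in the large subunit and Mrps36 left out, 29 of 30 large subunit and 16 of 16 small subunit genes with a bacterial counterpart lay above 0. Of those added in mitochondria, 16 of 20 large subunit and 8 of 10 small subunit genes did. Per library, the median deviation from each gene's own mean was 0.09 ± 0.17 in CD8 CD5hi and -0.04 ± 0.10 in CD8 CD5lo (log2, SD, n = 4 each). The median log2 change rests in part on 1 library, since it was 0.06, with 56 genes above 0, without CD8 CD5hi replicate 1. Without the replicate 1 library of all 4 groups it was 0.11, with 69 genes above 0, and leaving out the 3 libraries with much B cell RNA gave 0.19, with 69 genes above 0 and again 0 called. A fit with the replicate number as a block called 22 higher and 1 lower, where 13.4% and 11.6% of all tested genes were. In that fit the higher share of the 77 genes was above the background and the lower share below it. Numbers were not taken as pairing in CD8 cells. Same-numbered libraries there correlated by -0.04 to 0.56 over all tested genes and by 0.63 to 0.78 over the 77 genes alone.

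The genes with the smallest p in this comparison were chosen after their values were seen. Mrpl16, a large subunit protein with a bacterial counterpart, had 20.9, 18.1, 19.7 and 17.4 CPM in CD8 CD5hi and 16.1, 15.9, 16.4 and 16.1 CPM in CD8 CD5lo replicates 1 to 4. The groups did not overlap; the log2 change was 0.24 ± 0.08 (SE) with an edgeR adjusted p of 0.0722. Mrpl12 had 72.4, 61.7, 56.0 and 55.7 CPM in CD8 CD5hi and 52.3, 49.5, 48.4 and 52.5 CPM in CD8 CD5lo replicates 1 to 4. These groups did not overlap either, with a log2 change of 0.28 ± 0.10 (SE) and an edgeR adjusted p of 0.0893. Mrpl19 had 38.4, 36.1, 35.6 and 34.6 CPM in CD8 CD5hi and 32.7, 31.7, 33.4 and 30.1 CPM in CD8 CD5lo replicates 1 to 4, a log2 change of 0.18 with an edgeR adjusted p of 0.103. Mrpl19 shares 39.2% of its exonic bases with Gcfc2 on the opposite strand. DESeq2 called these 3 genes and 0 others higher, and limma voom called 0. The highest change was that of Mrps36, with 17.9, 10.7, 9.73 and 10.9 CPM in CD8 CD5hi and 10.6, 8.76, 9.02 and 8.80 CPM in CD8 CD5lo replicates 1 to 4. Its value in CD8 CD5hi replicate 1 lay far above the others, and the log2 change of 0.41 had an edgeR adjusted p of 0.200. In all, CD5hi values lay wholly above CD5lo values for 6 genes (Mrpl12, Mrpl16, Mrpl17, Mrpl19, Mrpl54 and Mrps27) and wholly below for 1 (Mrps26). Such separation occurred in 8.31% and 6.52% of all tested genes, so the count of higher genes is near the background and that of lower genes below it.

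Cell cycle genes moved with this contrast. Of 24 such genes, 20 were called higher in CD8 CD5hi cells, with a median log2 change of 1.45. Their summed level was 1381, 1425, 1178 and 801 CPM in CD8 CD5hi replicates 1 to 4, against 622 to 715 CPM in CD8 CD5lo replicates. Their part in the slight difference of mitochondrial ribosomal protein genes was not tested. CD8 CD5hi replicates 1 and 2 were the highest of their group for both sums, but in opposite order. Replicate 4 had the lowest cell cycle sum of that group (801 CPM). For the mitochondrial ribosomal protein genes, replicate 3 had the lowest sum (2371 CPM, against 2401 CPM in replicate 4).

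**Figure D4:**
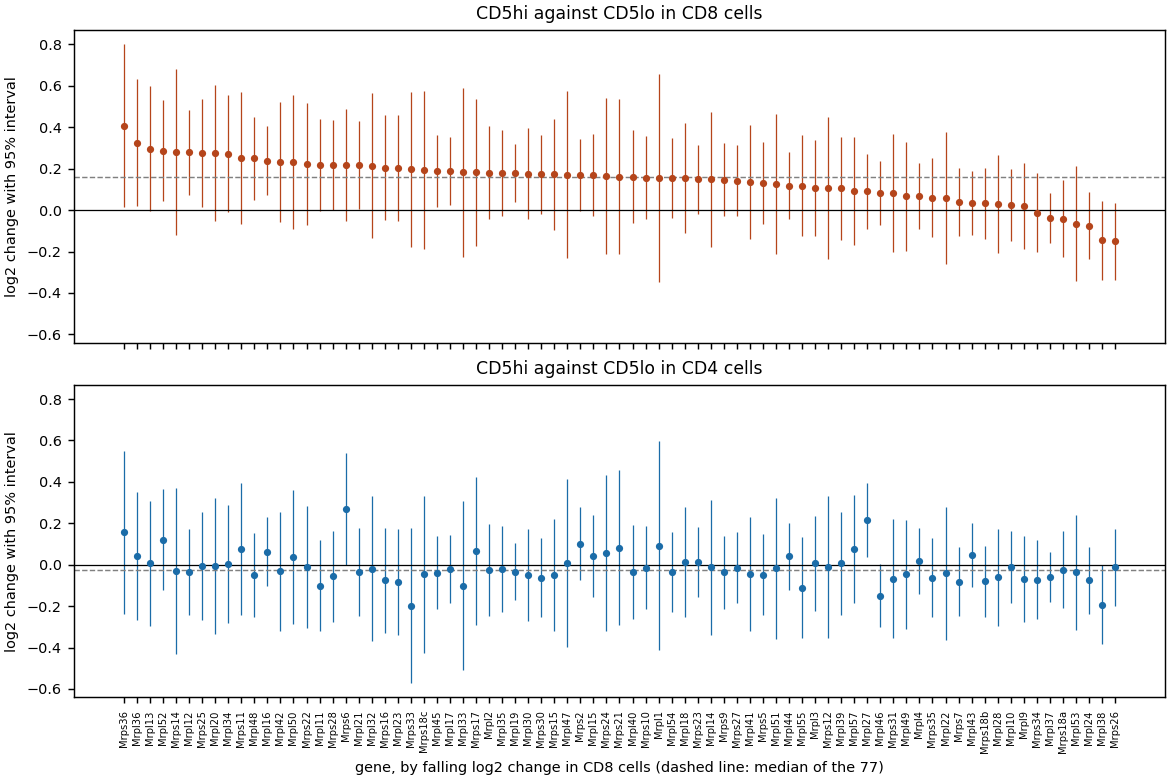
Log2 change of each of the 77 genes between CD5hi and CD5lo cells with its 95% interval, in CD8 cells (top) and CD4 cells (bottom), in the order of the CD8 change. In CD8 cells 70 points lie above 0 around a median of 0.16, whereas in CD4 cells 25 do, around a median of -0.02.

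In CD4 cells the genes differed little between CD5hi and CD5lo. None of the 77 were called by edgeR, against 2.68% of all tested genes called higher and 1.4% lower (4.08% either way). Before adjustment, 1 was higher and 1 lower with p under 0.05, where 7.17% and 5.25% of all genes were; DESeq2 and limma voom also called 0. No gene had wholly separate groups, which 5.6% (higher) and 3.69% (lower) of all genes had. The median log2 change was -0.02 over the 77 genes and -0.01 over all tested genes, with 25 of 77 genes above 0 (47.6% of all genes). Its sign turned with single libraries: 53 genes lay above 0 (median 0.03) without CD4 CD5lo replicate 1, and 8 (median -0.09) without CD4 CD5hi replicate 1. For 72 of the 77 genes the 95% interval of the log2 change lay within 0.5 either way, while in CD8 cells 56 did. Values of the genes nearest to a call were as follows. Mrpl27, a large subunit protein with a bacterial counterpart, had 21.0, 17.4, 17.8 and 18.8 CPM in CD4 CD5hi and 18.4, 15.2, 15.2 and 15.8 CPM in CD4 CD5lo replicates 1 to 4. It was higher in CD5hi within each replicate number, by 0.22 ± 0.08 (log2, SE), with an edgeR adjusted p of 0.259. Mrpl38 had 41.6, 33.0, 35.3 and 39.2 CPM in CD4 CD5hi and 46.2, 39.6, 41.3 and 43.5 CPM in CD4 CD5lo replicates 1 to 4, lower in CD5hi within each number.

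Same-numbered libraries deviated together in CD4 cells, so the fit with the replicate number as a block is given too. It called 1 of the 77 genes higher, Mrps6 (log2 change 0.27, edgeR adjusted p 0.0239), and 1 lower, Mrpl38 (-0.20, edgeR adjusted p 0.0201). In the same fit 5.69% of all tested genes were called higher and 3.99% lower, so 1 of 77 each way is below the background. Mrps6, a small subunit protein with a bacterial counterpart, had 15.1, 13.5, 12.3 and 13.9 CPM in CD4 CD5hi and 12.3, 12.1, 10.1 and 11.0 CPM in CD4 CD5lo replicates 1 to 4. It was higher in CD5hi within every number, although the groups overlap; 18.8% of its exonic bases are shared with Slc5a3.

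The CD5 difference in CD8 cells minus that in CD4 cells was tested directly. None of the 77 genes were called, against 0.177% of all tested genes called higher and 0.133% lower (0.31% either way). Before adjustment, 5 were higher and 0 lower with p under 0.05, where 4.43% and 3.1% of all genes were; DESeq2 and limma voom called 0. The difference was above 0 for 71 of the 77 genes, with a median of 0.17, against 49.7% and -0.002 over all tested genes. The highest values were 0.39 for Mrps33, 0.32 for Mrpl11 and 0.31 for Mrpl12, and the smallest adjusted p by edgeR was 0.590. Without CD8 CD5hi replicate 1 the median was 0.08.

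At high CD5, CD8 cells had slightly more RNA of these genes than CD4 cells, and 11 of the 77 genes passed the test. In edgeR's fit 9 were called higher and 2 lower in CD8 CD5hi than in CD4 CD5hi cells, against 15.6% and 14.8% of all tested genes (30.3% either way). In this fit the share among the 77 genes is thus below the background. With the replicate number as a block, the share called higher was above the background, as given below. The log2 change was above 0 for 61 of the 77 genes, with a median of 0.12, against 51.4% and 0.01 over all tested genes. The genes move together, so this count is no test of the groups. Per library, the median deviation from each gene's own mean was 0.09 ± 0.17 in CD8 CD5hi and -0.03 ± 0.13 in CD4 CD5hi (log2, SD, n = 4 each). The summed levels of the groups overlapped. Higher were 6 Mrpl genes (Mrpl12, Mrpl19, Mrpl34, Mrpl36, Mrpl45 and Mrpl48) and 3 Mrps genes (Mrps7, Mrps16 and Mrps36). Lower were Mrpl27 and Mrps26.

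Mrpl36, a short zinc-binding protein of the large subunit, had 51.0, 35.2, 33.0 and 35.2 CPM in CD8 CD5hi and 34.9, 25.2, 25.7 and 26.7 CPM in CD4 CD5hi replicates 1 to 4. Its log2 change was 0.46 ± 0.15 (SE), with an edgeR adjusted p of 0.0252, although CD4 CD5hi replicate 1 overlaps the CD8 values. Mrpl34, also a short large subunit protein, had 26.2, 20.8, 19.7 and 20.02 CPM in CD8 CD5hi and 18.6, 13.9, 15.1 and 15.8 CPM in CD4 CD5hi replicates 1 to 4. The groups did not overlap, with a log2 change of 0.45 ± 0.13 (SE, edgeR adjusted p 0.0167). Mrpl45, which anchors the large subunit at the inner membrane, had 34.0, 30.9, 28.1 and 27.4 CPM in CD8 CD5hi and 26.9, 23.6, 23.6 and 24.9 CPM in CD4 CD5hi replicates 1 to 4. These groups were separate as well, with a log2 change of 0.28 ± 0.08 (SE, edgeR adjusted p 0.0160). Mrpl12 averaged 61.5 ± 7.82 CPM in CD8 CD5hi and 49.99 ± 5.71 CPM in CD4 CD5hi cells (SD, n = 4 each), a log2 change of 0.30. Among small subunit genes, Mrps16 had 59.3, 43.3, 43.3 and 41.6 CPM in CD8 CD5hi and 43.7, 30.9, 34.9 and 35.3 CPM in CD4 CD5hi replicates 1 to 4, a log2 change of 0.37. The other 4 that rose had log2 changes of 0.55 (Mrps36), 0.29 (Mrpl48), 0.22 (Mrps7) and 0.20 (Mrpl19).

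Mrps26, a small subunit protein of the mitochondrial lineage, had 53.0, 54.9, 51.5 and 55.5 CPM in CD8 CD5hi and 73.2, 56.8, 65.5 and 71.5 CPM in CD4 CD5hi replicates 1 to 4. Every CD8 value lay below every CD4 value, with a log2 change of -0.31 ± 0.09 (SE, edgeR adjusted p 0.0123). Mrpl27 had 14.5, 14.9, 14.6 and 16.7 CPM in CD8 CD5hi and 21.0, 17.4, 17.8 and 18.8 CPM in CD4 CD5hi replicates 1 to 4. It too was separate, with a log2 change of -0.31 ± 0.09 (SE, edgeR adjusted p 0.0118). Mrpl27 shares 9.92% of its exonic bases with Eme1 on the opposite strand. In all, CD8 CD5hi values lay wholly above CD4 CD5hi values for 5 genes and wholly below for 2, where 14.4% and 14.6% of all tested genes did so.

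**Figure D5:**
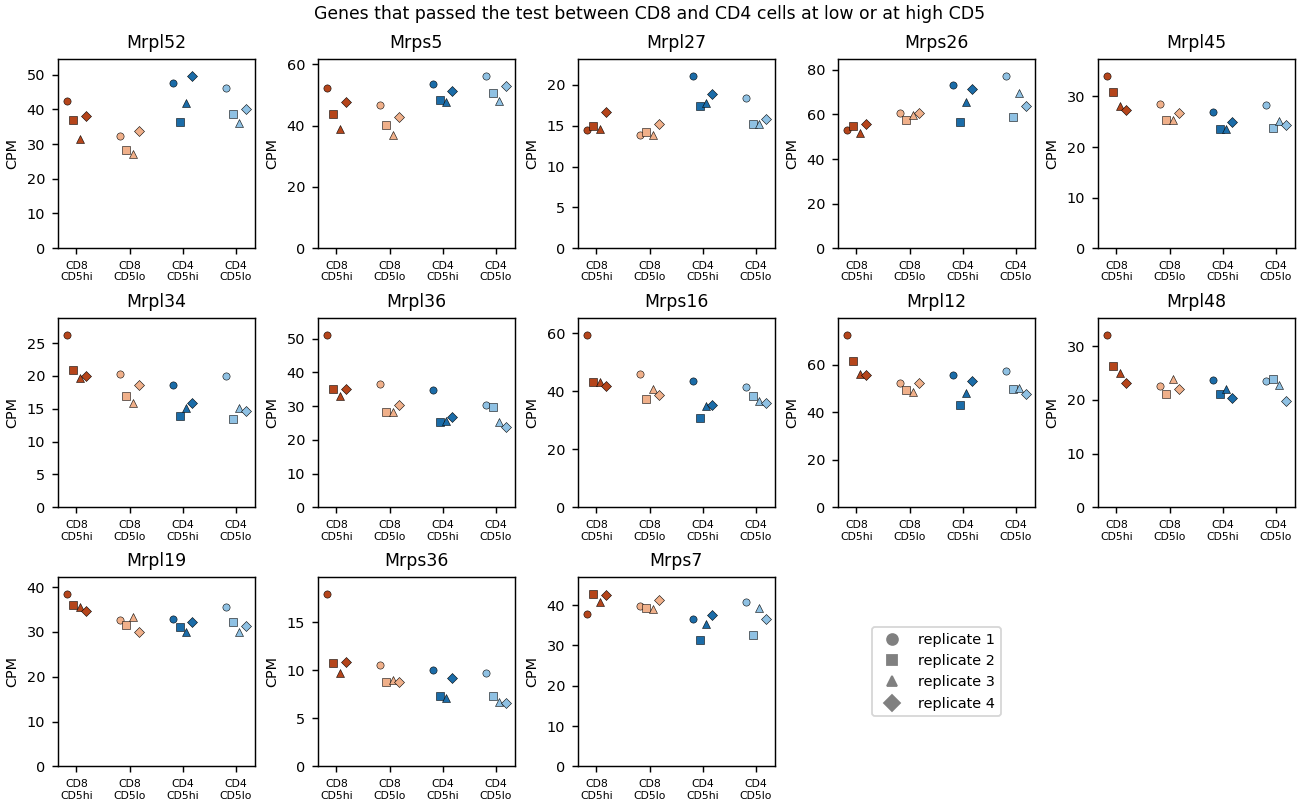
CPM in each library of the 13 genes that passed edgeR's test between CD8 and CD4 cells, with groups CD8 CD5hi, CD8 CD5lo, CD4 CD5hi and CD4 CD5lo and a symbol per replicate number. Mrpl52 and Mrps5 are lower in CD8 CD5lo than in CD4 CD5lo, Mrpl27 and Mrps26 lower in CD8 CD5hi than in CD4 CD5hi, and the other 9 higher in CD8 CD5hi.

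The number of genes called higher moved with the libraries used. It was 3, with a median log2 change of 0.03, without CD8 CD5hi replicate 1, 5 without CD8 CD5hi replicate 2, 15 without CD4 CD5hi replicate 1, 2 without CD4 CD5hi replicate 2 or replicate 3, and 5 without CD4 CD5hi replicate 4; 2 or 3 were called lower in each of these. With the replicate number as a block, since these libraries too deviated together by number, 23 were called higher and 6 lower, and the 11 genes above were among them. Of all tested genes, that fit called 23.4% higher and 23.3% lower. Leaving out the 3 libraries with much B cell RNA gave 11 higher and 2 lower. Cell cycle genes moved here too, with 21 of 24 higher in CD8 CD5hi cells; their part in these differences was not tested.

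The lineages were also compared at low CD5. Of the 77 genes 0 were called higher and 2 lower in CD8 CD5lo than in CD4 CD5lo cells, against 10% and 9.44% of all tested genes (19.5% either way). The median log2 change was -0.03, with 30 of the 77 genes above 0. Mrpl52, a large subunit protein of the mitochondrial lineage whose start region is printed above, had 32.4, 28.3, 27.2 and 33.9 CPM in CD8 CD5lo and 46.2, 38.7, 36.1 and 40.1 CPM in CD4 CD5lo replicates 1 to 4. The groups did not overlap, and the log2 change was -0.40 ± 0.12 (SE, edgeR adjusted p 0.0205). Mrps5, a small subunit protein with a bacterial counterpart, had 46.7, 40.3, 37.0 and 42.9 CPM in CD8 CD5lo and 56.1, 50.8, 48.2 and 53.1 CPM in CD4 CD5lo replicates 1 to 4. Here too the groups were separate, with a log2 change of -0.32 ± 0.09 (SE, edgeR adjusted p 0.0226). At high CD5 the corresponding changes were -0.24 for Mrpl52 and -0.14 for Mrps5, neither called in the fit with 1 term per group. Both were called lower there with the replicate number as a block. The differences between the CD5 levels were not called. Wholly separate groups were found for 6 genes, all lower in CD8 CD5lo (Mrpl9, Mrpl17, Mrpl46, Mrpl52, Mrps5 and Mrps31), where 10.5% of all tested genes were; 0 were wholly higher, against 11.8%.

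Both calls at low CD5 depended on single libraries. Neither gene was called without CD4 CD5lo replicate 1, CD8 CD5lo replicate 2 or CD8 CD5lo replicate 3, and Mrps5 also not without CD4 CD5lo replicate 4. Without CD8 CD5hi replicate 1, which is in neither group compared but enters the scaling and the shared estimate of spread, 3 genes were called lower. With the 3 libraries with much B cell RNA left out, the log2 changes were -0.40 for Mrpl52 (edgeR adjusted p 0.0689) and -0.30 for Mrps5 (edgeR adjusted p 0.0859). With the replicate number as a block, 2 genes were called higher and 8 lower, Mrpl52 and Mrps5 among them, where 15.7% and 16.3% of all tested genes were. The higher ones were Mrpl34 and Mrps36, and the other lower ones Mrpl9, Mrpl46, Mrps21, Mrps25, Mrps28 and Mrps35.

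Genes that work with the mitochondrial ribosome were set beside these values; their counts are to be read against the shares of all tested genes given for each comparison. In the CD8 CD5 comparison, nuclear respiratory chain genes had 74 of 77 tested genes above 0 (median log2 change 0.19, 3 called higher), and cytosolic ribosomal protein genes 74 of 82 (median 0.13, 2 called higher). Of 14 mitochondrial translation factors 1 was called, Mrrf, the ribosome recycling factor. It averaged 19.0 ± 1.14 CPM in CD8 CD5hi and 14.6 ± 0.515 CPM in CD8 CD5lo cells (SD, n = 4 each), a log2 change of 0.38 ± 0.07 (SE, edgeR adjusted p 0.00272). Of 17 mitochondrial aminoacyl-tRNA synthetases 0 were called higher and 2 lower, Aars2 (-0.25) and Ears2 (-0.29), which charge alanine and glutamate tRNAs. Of 10 genes for upkeep and transcription of the mitochondrial genome, Polg, the replicative DNA polymerase, was called lower at 105 ± 5.23 CPM in CD8 CD5hi, against 136 ± 8.45 CPM in CD8 CD5lo cells. None of 9 regulators of mitochondrial biogenesis tested and none of 18 assembly factors were called in CD8 cells. In CD4 cells edgeR called 0 genes of all these lists. Mrrf averaged 19.0 ± 1.39 CPM in CD4 CD5hi and 15.9 ± 0.258 CPM in CD4 CD5lo cells (SD, n = 4 each). The smallest edgeR adjusted p among the 14 translation factors in CD4 cells was 0.0502. DESeq2 called 1 translation factor higher and 1 aminoacyl-tRNA synthetase lower there.

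Between lineages at high CD5, 5 of 18 assembly factors were called higher in CD8 cells and 0 lower, among them Noa1 (0.30), Mtg1 (0.24) and C1qbp (0.37). Of all tested genes, 15.6% were called higher and 14.8% lower in this comparison (30.3% either way). Taken either way, 5 of 18 is near the background. By direction, 5 of 18 higher is above it and 0 lower is below it. Translation factors had 3 of 14 higher and 0 lower, namely Lrpprc (0.31), which stabilises mitochondrial messages, Gfm1 (0.28), an elongation factor, and Mtrf1 (0.50), a release factor. Aminoacyl-tRNA synthetases had 1 of 17 higher, Fars2 (0.41), and 4 lower, led by Ears2 (-0.57). Polg was lower as well (-0.83). Dap3, a small subunit GTP-binding protein whose name falls outside the Mrp pattern, was lower in CD8 cells at high CD5 (-0.35, edgeR adjusted p 0.00174) and at low CD5 (-0.28, edgeR adjusted p 0.0140). The other 5 ribosomal proteins with other names (Ptcd3, Aurkaip1, Chchd1, Gadd45gip1 and Ict1) were not called in any of the 5 comparisons. Among regulators, Myc was higher in CD8 cells at high CD5 (0.58) and at low CD5 (0.52), while Nrf1 (-0.26), which activates nuclear genes for mitochondria, and Esrra (-0.33) were lower at high CD5. Gabpa, whose protein binds the ETS core printed above, had log2 changes of 0.16 in the CD8 CD5 comparison and 0.07 between lineages at high CD5, neither called. The 2 lineage comparisons and the 2 CD5 comparisons share libraries, so their values are given side by side only.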

How the data were processed

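The deposited table held whole-number counts per gene and library with unequal totals, that is, no normalisation by the authors. Per the submitters' processing notes, DESeq2, featureCounts 1.4.6-p3 and STAR 2.5.2a were used, and the assembly was mm10. Per the labels' protocols, libraries came from either of a pair of TruSeq kits, 1 stranded and 1 not; no source used here says which sample had which. All columns were matched to samples (0 left over). 2 gene names occurred more than once, and counts under 10 were even in 73.9 to 80.5% of cases. Library pairs of a group differed beyond sampling noise (chi-square per degree of freedom 28.6 to 203).

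Counts were tested in edgeR 4.0.16 (R 4.3.3): TMM normalisation (factors 0.981 to 1.017), filterByExpr (counts of at least 10, total of at least 15), a model of 16 libraries with a term for each group (12 residual degrees of freedom) and two-sided quasi-likelihood F tests. P-values were adjusted by Benjamini-Hochberg over 13554 genes in each of 5 comparisons, at a threshold of 0.05. DESeq2 1.42.0, limma voom 3.58.1, other scalings and filters, a replicate block and left-out libraries were alternatives. The procedure was tested on simulated data. These held changes between groups but no effect shared by replicate number, so they cannot show how the fits behave under such an effect. CPM are TMM-normalised. RPKM divide CPM by the exon length of GENCODE vM21 transcripts paired with RefSeq; lengths and start positions come from GRCm38, promoter sequences from RefSeq (GRCm38.p6).

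The members, lists and rules were chosen with earlier results of these data known. Named were members called by adjusted p (up to 12 each way for CD5 comparisons and the interaction, up to 8 for lineage comparisons), the 3 highest and 3 lowest of each subunit by RPKM, the 3 nearest the count condition, Mrps18a, Mrps18b, Mrps18c, Mrps30, Mrps36 and Mrpl12, and up to 3 called genes per list. Mrps7, members not called but nearest to a call, those whose groups did not overlap, the steadiest and least steady by SD, head-to-head partners and the uncalled list genes given with values were named after their values were seen.

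Same-numbered libraries were checked by the correlation of their deviations from group means over tested genes. It ran from 0.25 to 0.53 for CD5hi and CD5lo libraries of CD4 cells. Between lineages it ran from 0.20 to 0.70 at low CD5 and from 0.23 to 0.54 at high CD5. It was over 0.1 in every pair, so numbers were taken as pairing there. The labels say nothing of a shared day or animal. The main fit with 1 term per group leaves this pairing out, and the fit with the replicate number as a block uses it. Both are given for these comparisons. In CD8 cells it ran from -0.04 to 0.56, and numbers were not taken as pairing.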

Additional observations from a re-analysis of the deposited data

Results flagged for a closer look

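In groups of 4 libraries, 1 library was set far from the other 3 in 14 of 116 series (27 genes named by rule and the 2 subunit sums, in 4 groups). The series are not independent, since the genes move together in the same 16 libraries and some were named by tests on these values. The count is therefore no test against the 1 in 20 that independent series would give by chance. In all 14 the outlying library was replicate 1 and the highest of its group. In CD8 CD5hi, replicate 1 stood at 68.6 CPM for Mrpl33 (others 37.4 to 41.6), 51.0 CPM for Mrpl36 (33.0 to 35.2), 15.2 CPM for Mrpl47 (9.88 to 10.2) and 59.3 CPM for Mrps16 (41.6 to 43.3). It also stood at 32.1 CPM for Mrps21 (others 18.9 to 21.1), 67.7 CPM for Mrps23 (56.2 to 58.1), 21.5 CPM for Mrps27 (16.6 to 17.4) and 17.9 CPM for Mrps36 (9.73 to 10.9). In CD8 CD5lo, replicate 1 stood at 26.2 CPM for Mrps21 (others 18.3 to 19.5), 35.6 CPM for Mrps35 (30.8 to 31.4) and 10.6 CPM for Mrps36 (8.76 to 9.02). In CD4 CD5hi, replicate 1 stood at 34.9 CPM for Mrpl36 (others 25.2 to 26.7). In CD4 CD5lo, replicate 1 stood at 30.3 CPM for Mrps21 (others 21.5 to 22.8) and 40.3 CPM for Mrps35 (33.6 to 34.6).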

How the results depend on the processing

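Without 1 library at a time, genes called higher and lower numbered 0 to 2 and 0 to 0 for CD5 in CD8 cells, 0 to 0 and 0 to 0 for CD5 in CD4 cells and for the interaction, 0 to 0 and 0 to 3 for CD8 against CD4 at low CD5, and 2 to 15 and 2 to 3 at high CD5. The 2 genes called for CD5 in CD8 cells came without CD8 CD5hi replicate 4. The median log2 change ran from 0.06 to 0.23, -0.09 to 0.03, 0.08 to 0.23, -0.10 to 0.01 and 0.03 to 0.19 in that order. DESeq2 called 3 genes higher for CD5 in CD8 cells. Testing only the groups compared left 2 genes called higher at high CD5, with fewer libraries behind the spread. At low CD5, 0 were lower when the 3 libraries with much B cell RNA were left out, and 1 was higher without the replicate 1 libraries, an alternative that left 1 lower at high CD5. Both of these were chosen after the data were seen, as were halved counts and lengths over all exons.

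With the replicate block, 22 genes were called higher and 1 lower for CD5 in CD8 cells, where numbers were not taken as pairing; every pair there correlated by 0.63 to 0.78 over the 77 genes alone. Of all tested genes that fit called 13.4% higher and 11.6% lower, so the higher share of the 77 genes was above the background and the lower share below it. The block called 1 higher and 1 lower for CD5 in CD4 cells, 2 and 8 at low CD5, 23 and 6 at high CD5, and 0 for the interaction.

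Of 887 values for single genes under alternatives, 798 kept direction and side of the threshold, 54 lost a call, 35 gained one and 0 changed direction with a call. The cause of these changes was not tested.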
